A study of Mus musculus with 14 samples.

Results

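The epithelial keratins described here are 10 genes, Krt7, Krt8, Krt18 and Krt19 (luminal), Krt5, Krt14, Krt15 and Krt17 (basal), and Krt6a and Krt10 (skin type). Their probe sets were taken as those whose platform annotation names exactly 1 of these symbols, which gave 17 of the 22690 probe sets on the array and 10 of the 12395 genes named by a probe set of their own. Krt8, Krt14 and Krt6a each had 3 probe sets, Krt17 had 2, and the other 6 genes had 1. Another probe set, 1427841_at, names both Krt17 and Krt14 and was therefore left out.

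The arrays are Affymetrix expression arrays of whole inguinal (number 4) mammary glands of untreated female CD1 mice, with the lymph nodes taken out. The groups are 3wk, 4wk, 5wk, 6wk and 7wk of age, with 3 arrays (A, B and C) at each age except 5wk, which had 2 (A and B), and 14 arrays in all. Each array carried biotin-labelled RNA from a pool of at least 3 mice. CD1 is an outbred strain, and the labels give no transgene or treatment and only age as the difference between the groups. The study follows the gland through puberty, so the question put to the keratins is how each one moved with age.

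Keratins build the intermediate filaments of epithelial cells, in which a type II chain always pairs with a type I chain. In the mouse mammary gland the luminal cells that line ducts carry the simple keratins, Krt8 with Krt18 and in part Krt19 and Krt7. The myoepithelial, or basal, cells around them carry Krt5 with Krt14 and in part Krt17, and Krt15 is also a keratin of basal cells in stratified epithelia. Krt10 is the type I keratin of differentiating epidermis and Krt6a a keratin of stressed or wounded epidermis and hair follicle, although Krt6a has also been seen in mouse mammary epithelium. The fat pad of a young mouse holds few ducts at weaning, and in puberty they grow out from the nipple to fill it.

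The type II genes Krt7, Krt8, Krt5 and Krt6a lie on mouse chromosome 15, and the type I genes Krt19, Krt14, Krt15, Krt17 and Krt10 on chromosome 11. Krt18, a type I gene, is on chromosome 15, and its start lies 23874 bases from that of its partner Krt8 (GRCm38.p6). Of the 10 genes, 6 were in the RefSeq promoter table used here, and for 4 of them, Krt7, Krt8, Krt18 and Krt5, the table's window lay at the annotated start of the gene. The stretches from 250 bases before to 25 bases after the start are shown because the first 3 genes moved together on the arrays while Krt5 changed less. The capitals mark matches on either strand to 3 motifs, the TATA box TATAAA, the GC box GGGCGG and the AP-2 site GCCNNNGGC, in RefSeq sequence of GRCm38.p6, 5′ to 3′ on the strand of the gene.
Krt8, chr15:102004318-102004592, minus strand: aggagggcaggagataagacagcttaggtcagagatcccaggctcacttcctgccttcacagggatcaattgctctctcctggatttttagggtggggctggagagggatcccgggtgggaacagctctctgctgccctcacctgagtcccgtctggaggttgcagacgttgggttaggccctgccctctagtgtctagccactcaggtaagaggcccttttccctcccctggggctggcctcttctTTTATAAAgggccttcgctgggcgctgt
Krt18, chr15:102027966-102028240, plus strand: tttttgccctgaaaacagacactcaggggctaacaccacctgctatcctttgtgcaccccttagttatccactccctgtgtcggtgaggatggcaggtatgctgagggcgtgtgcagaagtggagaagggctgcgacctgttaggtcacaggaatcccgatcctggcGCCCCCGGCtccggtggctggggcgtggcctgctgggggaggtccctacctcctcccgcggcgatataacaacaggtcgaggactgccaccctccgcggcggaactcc
Krt7, chr15:101412153-101412427, plus strand: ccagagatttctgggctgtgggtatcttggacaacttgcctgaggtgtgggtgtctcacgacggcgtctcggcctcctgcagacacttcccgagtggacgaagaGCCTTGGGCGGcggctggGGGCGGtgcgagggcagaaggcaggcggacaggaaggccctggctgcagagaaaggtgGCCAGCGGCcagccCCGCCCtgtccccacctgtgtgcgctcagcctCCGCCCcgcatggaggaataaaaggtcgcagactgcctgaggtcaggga
Krt5, chr15:101712881-101713155, minus strand: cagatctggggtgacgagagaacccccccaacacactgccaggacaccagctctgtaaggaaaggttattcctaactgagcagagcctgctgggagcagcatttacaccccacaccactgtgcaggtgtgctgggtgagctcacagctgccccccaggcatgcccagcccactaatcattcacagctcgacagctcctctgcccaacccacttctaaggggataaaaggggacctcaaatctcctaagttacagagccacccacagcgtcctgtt

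In the Krt8 stretch the TATA letters were met once on each strand, at -3 to 3 and at -1 to 5 from the start, and these matches overlap. The Krt18 stretch held 1 AP-2 match, at -83 to -75. The Krt7 stretch held 4 GC boxes and 2 AP-2 matches, 1 of which, at -146 to -138, overlaps the GC box at -141 to -136. The Krt5 stretch held none of the 3 motifs, which says only that these letters are not in this window. Among all 32541 promoter windows of the same length, 12.9% held TATAAA, 34.7% GGGCGG and 15.2% GCCNNNGGC. A match is a description of the letters and not evidence of a bound factor.

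The deposited table holds relative signal: in 98.48% of rows the median is 1 within 0.001, as division by the row's median gives. In such a row a ratio of 1 is the middle of the range of that probe set. No level can be compared between genes or between probe sets. For dim probe sets the level before division could be recovered in steps, a step being the smallest unit of signal on an array. Probe sets under 200 steps on all arrays or all but 1 were not tested, which removed Krt17 1420193_at (6 to 111 steps) and Krt6a 1427700_x_at (11 to 139 steps) and left 15 keratin probe sets among 20209 tested. Changes are log2 differences between ages, later minus earlier, with the standard error of the limma fit, and p-values are adjusted over all 20209 probe sets with a threshold of 0.05. The number of arrays limits the precision. Array 3wk A stood apart for the luminal keratins, with a mean log2 ratio over the 4 genes of -2.70, against -1.39 on 3wk B and -1.40 on 3wk C. At 6wk the 5′ to 3′ log2 ratio of the pyruvate carboxylase control, a sign of RNA integrity, was -2.78 to -1.81, against -0.66 to 0.32 at 3wk. The other such controls differed less. Their means at 6wk and 3wk were -0.44 and 0.07 for actin and -0.23 and 0.03 for Gapdh. Transferrin receptor went the other way, with -0.34 and -0.69. At 7wk the 18 hybridisation control probe sets averaged -1.86 to -0.79, against -0.23 to 0.56 at 3wk. Every other array was at or above -0.58 on these hybridisation controls, so a covariate made of them cannot be fully told apart from age at 7wk. Whether these controls bear on the keratins was looked at only as far as the left-out arrays and that covariate, given below.

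All 4 luminal keratins rose with age, with the largest step of their means between 4wk and 5wk, and the basal Krt14 did so on 2 of its 3 probe sets. The basal Krt5 and Krt15 rose at 6wk, Krt15 against 3wk arrays that were under the filter on low signal, and the skin-type keratins Krt6a and Krt10 did not pass the test at any age. Over the 5 ages, 8 of the 15 tested probe sets passed the F test, 5 of 6 luminal, 3 of 6 basal and 0 of 3 skin type, where 8.61% of all tested probe sets passed. Against 3wk, none of the 15 passed at 4wk (0.109% of all), 6 were higher at 5wk (2.92% called, 1.96% higher), 10 were higher at 6wk (11.6% called, 7.71% higher) and 8 were higher at 7wk (7.15% called, 5.01% higher). Krt15 is among the 8 that passed the F test and the 10 at 6wk. It passed the filter on low signal only through arrays of 5wk to 7wk, so some difference was built into its being tested. No keratin probe set passed for a fall against 3wk. In bulk tissue, a rise in the number of cells of a type and a rise in RNA per cell cannot be told apart.

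**Figure D1:**
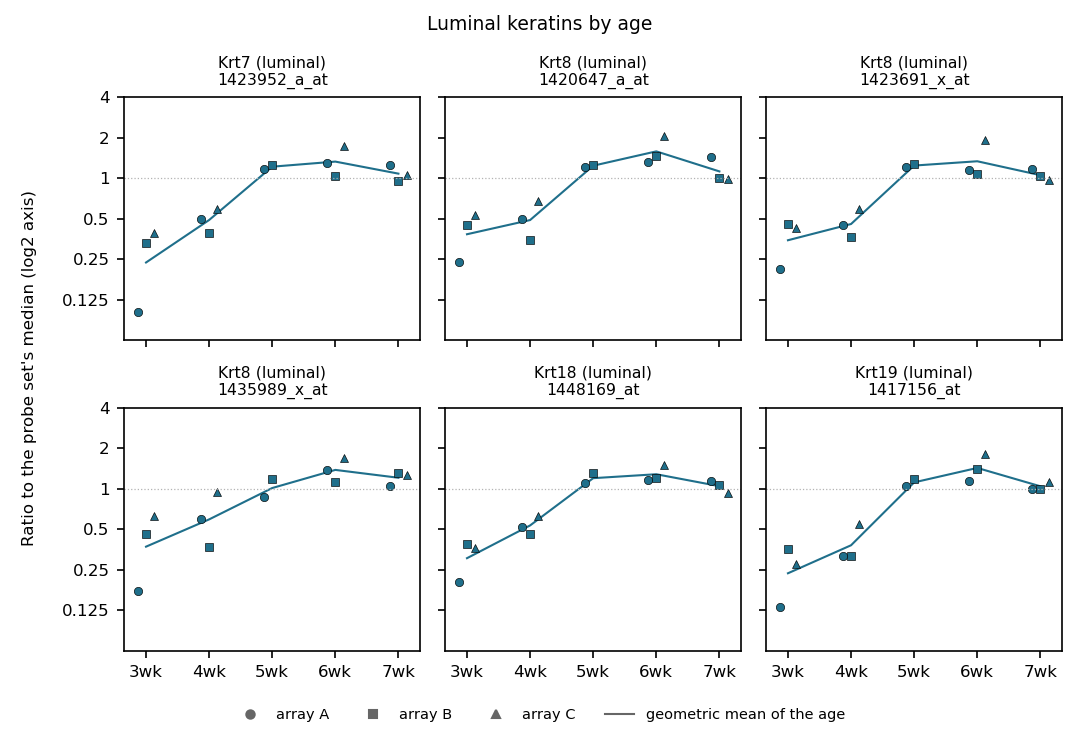
Ratio of each luminal keratin probe set to its median (log2 axis) on each of the 14 arrays, by age, with the line through the geometric mean of the age. The 5wk, 6wk and 7wk arrays lie above the 3wk and 4wk arrays on all of these probe sets except Krt8 1435989_x_at.

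Krt8, the type II keratin of simple epithelia, was measured by 3 probe sets. On 1420647_a_at the ratios were 0.238, 0.447 and 0.535 at 3wk, 0.501, 0.346 and 0.680 at 4wk, 1.222 and 1.264 at 5wk, 1.324, 1.457 and 2.078 at 6wk, and 1.433, 1.006 and 0.994 at 7wk. All arrays of the 3 later ages were thus above all arrays of the 2 earlier ones, and the 3wk and 4wk arrays overlapped. The log2 difference from 3wk was 1.69 (SE 0.37, adjusted p = 0.034) at 5wk, 2.05 (SE 0.33, adjusted p = 0.00336) at 6wk and 1.55 (SE 0.33, adjusted p = 0.0174) at 7wk. On 1423691_x_at it was 1.84, 1.95 and 1.61 at those ages, all past the threshold. The third, 1435989_x_at, reached 1.45 at 5wk (adjusted p = 0.162), 1.89 at 6wk (adjusted p = 0.0208) and 1.70 at 7wk (adjusted p = 0.0441), and its 4wk C array, at 0.95, lay above its 5wk A array, at 0.872. Its 6wk call was lost without 6wk A or 6wk C, and its 7wk call in 11 of 14 fits that each left out 1 array. In the array maker's naming, the ending _x_at marks probe sets whose probes can also bind other transcripts.

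Krt18, the type I partner of Krt8, gave the smallest errors of the luminal keratins. Its ratios were 0.201, 0.388 and 0.361 at 3wk, 0.520, 0.463 and 0.628 at 4wk, 1.100 and 1.301 at 5wk, 1.158, 1.197 and 1.511 at 6wk, and 1.141, 1.070 and 0.930 at 7wk. Every 4wk array was above every 3wk array, and every later array above both, while the 7wk arrays were all below the 6wk arrays. The log2 difference from 3wk was 0.81 (SE 0.24, adjusted p = 0.276) at 4wk, 1.98 (SE 0.27, adjusted p = 0.00437) at 5wk, 2.07 (SE 0.24, adjusted p = 0.000652) at 6wk and 1.78 (SE 0.24, adjusted p = 0.0017) at 7wk. The difference of 7wk against 6wk was -0.29 (SE 0.24, adjusted p = 0.653), so the lower 7wk level did not pass the test.

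Krt19, a small type I keratin of ductal epithelium that lacks the usual tail domain, also rose from 5wk on. Its ratios were 0.131, 0.359 and 0.276 at 3wk, 0.318, 0.316 and 0.544 at 4wk, 1.046 and 1.185 at 5wk, 1.138, 1.4 and 1.817 at 6wk, and 1.002, 0.998 and 1.129 at 7wk. The later 3 ages did not overlap the first 2. It averaged 1.45 ± 0.342 at 6wk and 0.255 ± 0.115 at 3wk (SD, n = 3 each), a log2 difference of 2.60 (SE 0.34, adjusted p = 0.0012), and the difference at 7wk was 2.15 (SE 0.34, adjusted p = 0.00424).

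Krt7, a type II keratin of glandular and ductal epithelia, followed the same course. Its ratios were 0.102, 0.332 and 0.394 at 3wk, 0.503, 0.395 and 0.595 at 4wk, 1.181 and 1.265 at 5wk, 1.292, 1.051 and 1.746 at 6wk, and 1.264, 0.949 and 1.065 at 7wk. As for Krt18, the 4wk arrays were all above the 3wk arrays, here by as little as 0.395 on 4wk B against 0.394 on 3wk C. The log2 difference from 3wk was 2.37 (SE 0.47, adjusted p = 0.0236) at 5wk, 2.49 (SE 0.42, adjusted p = 0.0044) at 6wk and 2.19 (SE 0.42, adjusted p = 0.011) at 7wk. Without array 3wk A, the lowest for all 6 luminal probe sets, the 7wk difference of Krt7 was 1.59, the lowest over the fits that each left out 1 array.

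No luminal keratin passed between neighbouring ages. At 5wk against 4wk the 6 probe sets differed by 0.77 to 1.55 on the log2 scale, with adjusted p from 0.0845 for Krt18 to 0.531 for Krt8 1435989_x_at, where 0.49% of all probe sets passed. At 6wk against 5wk they differed by 0.10 to 0.45, where 0.173% of all passed, and at 7wk against 6wk by -0.49 to -0.19. Of the 5wk calls, most rest on both 5wk arrays together, since without 5wk A or without 5wk B the count of 6 keratin probe sets became 1.

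**Figure D2:**
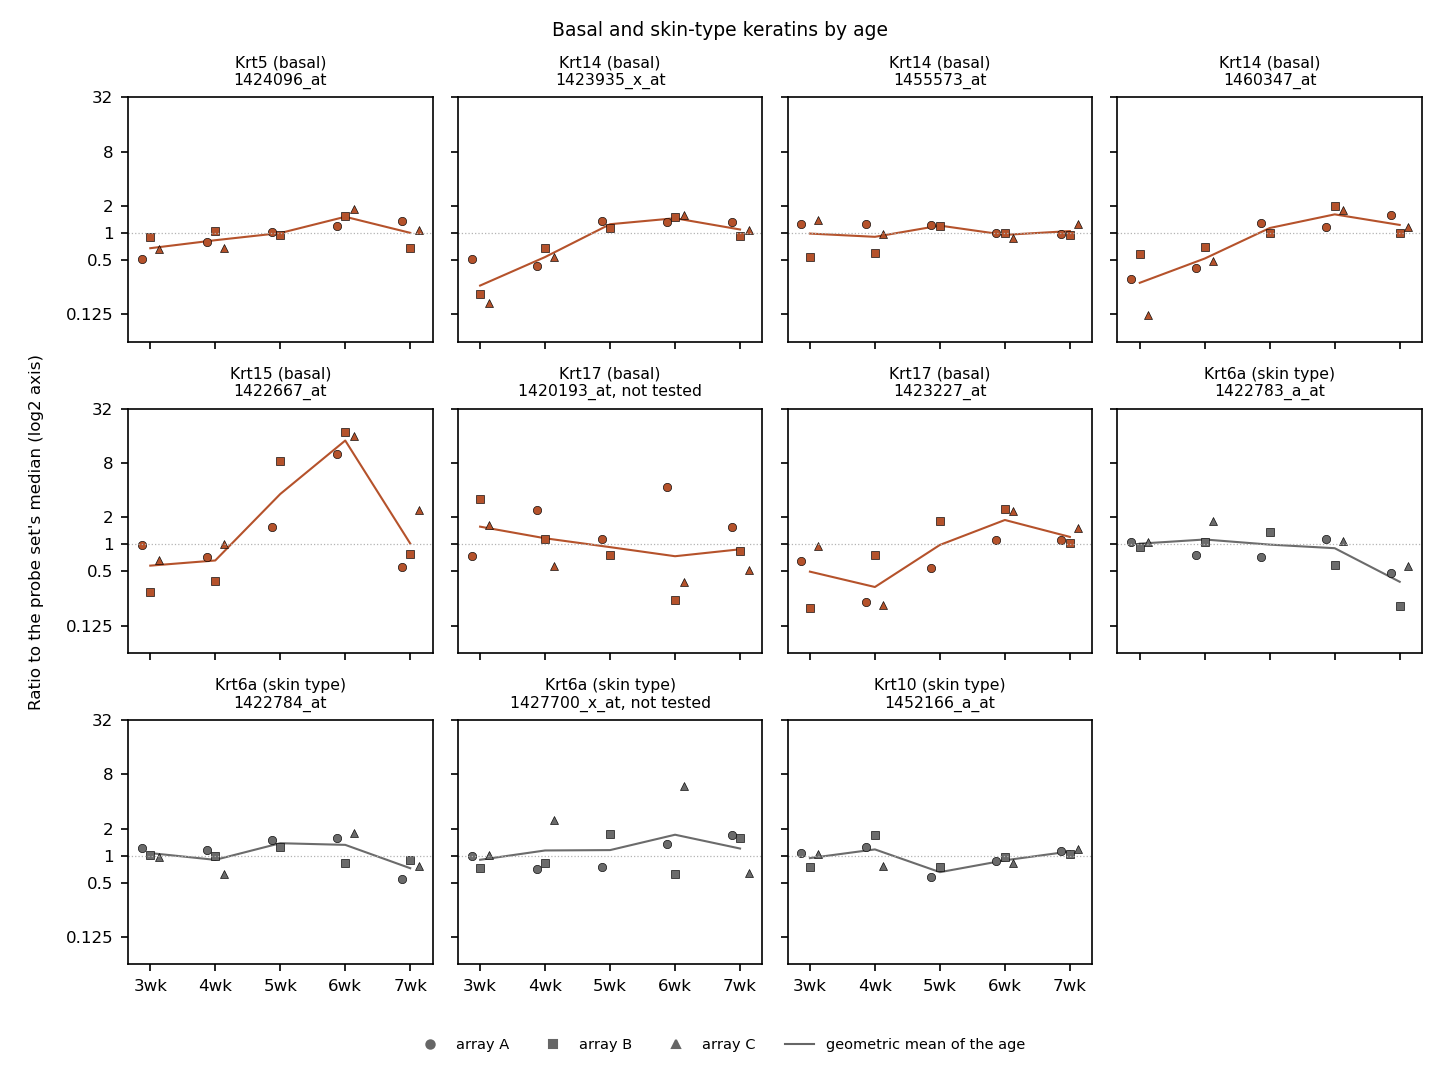
Ratio of each basal and skin-type keratin probe set to its median (log2 axis) on each of the 14 arrays, by age, with the line through the geometric mean of the age. Krt15 reaches 10.14 to 17.68 at 6wk, and 1 of the 3 Krt14 probe sets, 1455573_at, stays near 1 while the other 2 rise.

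Krt14, the type I keratin of basal cells, split by probe set. On 1423935_x_at the ratios were 0.511, 0.210 and 0.166 at 3wk, 0.433, 0.674 and 0.544 at 4wk, 1.369 and 1.146 at 5wk, 1.311, 1.502 and 1.579 at 6wk, and 1.320, 0.916 and 1.084 at 7wk. On 1460347_at they were 0.305, 0.582 and 0.124 at 3wk, 0.414, 0.701 and 0.488 at 4wk, 1.282 and 1.008 at 5wk, 1.153, 2.008 and 1.805 at 6wk, and 1.604, 0.992 and 1.169 at 7wk. On both, the arrays of 5wk to 7wk were all above those of 3wk and 4wk, as in the luminal keratins, and for 7 of the 15 keratin probe sets in all, where 2.99% of all tested probe sets showed that separation. The log2 difference from 3wk was 2.48 (SE 0.35, adjusted p = 0.00168) and 2.52 (SE 0.47, adjusted p = 0.00717) at 6wk on these probe sets, and 2.07 (SE 0.35, adjusted p = 0.00582) and 2.13 (SE 0.47, adjusted p = 0.0204) at 7wk.

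The third Krt14 probe set, 1455573_at, gave 1.268, 0.544 and 1.390 at 3wk, 1.266, 0.598 and 0.987 at 4wk, 1.215 and 1.203 at 5wk, 0.999, 1.001 and 0.870 at 6wk, and 0.978, 0.949 and 1.250 at 7wk. All ages overlapped apart from 6wk, which lay below 5wk, and the log2 difference from 3wk was -0.05 (SE 0.35, adjusted p = 0.951) at 6wk and 0.09 (SE 0.35, adjusted p = 0.913) at 7wk. Over the deviations of the 14 arrays from their age means it correlated with 1460347_at at r = -0.76 and with 1423935_x_at at r = -0.03, while these 2 correlated with each other at r = 0.44. The 3 probe sets carry the same symbol in the annotation, and what sets 1455573_at apart was not tested.

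Krt5, the type II partner of Krt14, moved less. Its ratios were 0.511, 0.915 and 0.668 at 3wk, 0.804, 1.045 and 0.686 at 4wk, 1.038 and 0.962 at 5wk, 1.202, 1.564 and 1.850 at 6wk, and 1.360, 0.685 and 1.088 at 7wk. Only the 6wk arrays stood clear of all 3wk, 4wk and 5wk arrays, and 7wk overlapped every other age. The log2 difference from 3wk was 1.16 (SE 0.29, adjusted p = 0.0272) at 6wk and 0.57 (SE 0.29, adjusted p = 0.3) at 7wk. The 6wk call did not hold without 3wk A, 3wk C, 6wk B or 6wk C, each left out in turn, with adjusted p from 0.0696 to 0.0892.

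In the fit of the log2 ratios themselves, Krt15 was the only one of the 10 genes with a call between neighbouring ages. Its ratios were 0.993, 0.296 and 0.665 at 3wk, 0.730, 0.395 and 1.007 at 4wk, 1.547 and 8.465 at 5wk, 10.14, 17.68 and 15.94 at 6wk, and 0.564, 0.784 and 2.409 at 7wk. The 3 arrays at 6wk were above all others, and the pair of 5wk arrays lay far apart. In steps, its recovered level lay between 24 and 86 on the 3wk arrays and between 36 and 80 on the 4wk arrays, below the filter. The 5wk arrays had 132 and 674 steps, the 6wk arrays 972, 1663 and 2026, and the 7wk arrays 76, 76 and 300. It passed the filter only through arrays of 5wk to 7wk, so some difference was built into its being tested.

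The log2 difference of Krt15 was 4.61 (SE 0.71, adjusted p = 0.00294) for 6wk against 3wk, 0.82 (SE 0.71, adjusted p = 0.577) for 7wk against 3wk and -3.80 (SE 0.71, adjusted p = 0.0431) for 7wk against 6wk, where 0.643% of all probe sets passed and 0.094% were lower. That fall lies close to the threshold: leaving out 1 array at a time, it was between -4.42 and -3.37 and no longer passed in 10 of 14 fits, being lost without 3wk B, 3wk C, 7wk A, 7wk B or any array of 4wk or 6wk. With the hybridisation controls as a covariate it was -2.59 (adjusted p = 0.285). Its size at 6wk against 3wk was 4.13 to 5.00 over the same 14 fits, all past the threshold, and 4.78 (adjusted p = 0.054) without both 6wk A and 6wk B. The fold against 3wk is set against arrays close to the lowest signals and depends on them.

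Krt17, a type I keratin of basal and appendage cells, gave 0.648, 0.197 and 0.967 at 3wk, 0.231, 0.769 and 0.214 at 4wk, 0.540 and 1.798 at 5wk, 1.117, 2.492 and 2.324 at 6wk, and 1.122, 1.033 and 1.527 at 7wk on 1423227_at. The arrays of 6wk and 7wk were all above those of 3wk and 4wk, but the arrays within an age spread widely. The log2 difference from 3wk was 1.90 (SE 0.68, adjusted p = 0.0961) at 6wk and 1.28 (SE 0.68, adjusted p = 0.318) at 7wk, neither past the threshold. At 5wk array B was above array A for Krt15 and this Krt17 probe set, and below it for Krt5 and all 3 Krt14 probe sets.

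Krt6a, the wound and hair follicle keratin, gave 1.058, 0.942 and 1.058 at 3wk, 0.757, 1.067 and 1.796 at 4wk, 0.715 and 1.380 at 5wk, 1.158, 0.587 and 1.094 at 6wk, and 0.477, 0.205 and 0.580 at 7wk on 1422783_a_at. The 3 arrays at 7wk were below all others, and the log2 difference from 3wk was -1.41 (SE 0.44, adjusted p = 0.0866). On 1422784_at the 7wk ratios were 0.557, 0.890 and 0.771, against 1.223, 1.021 and 0.976 at 3wk, again without overlap, with a log2 difference of -0.56 (SE 0.31, adjusted p = 0.345). Neither difference passed, and 9.64% of all probe sets lay lower without overlap in this comparison. Over the deviations from the age means these 2 probe sets correlated at r = -0.18.

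Krt10, the keratin of differentiating epidermis, gave 1.078, 0.746 and 1.032 at 3wk, 1.238, 1.689 and 0.773 at 4wk, 0.574 and 0.750 at 5wk, 0.876, 0.969 and 0.825 at 6wk, and 1.137, 1.031 and 1.176 at 7wk. The 7wk arrays were all above the 5wk and 6wk arrays and overlapped those of 3wk and 4wk. Its log2 difference from 3wk was -0.08 (SE 0.25, adjusted p = 0.877) at 6wk and 0.24 (SE 0.25, adjusted p = 0.65) at 7wk, and the F test over ages gave an adjusted p of 0.271.

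**Figure D3:**
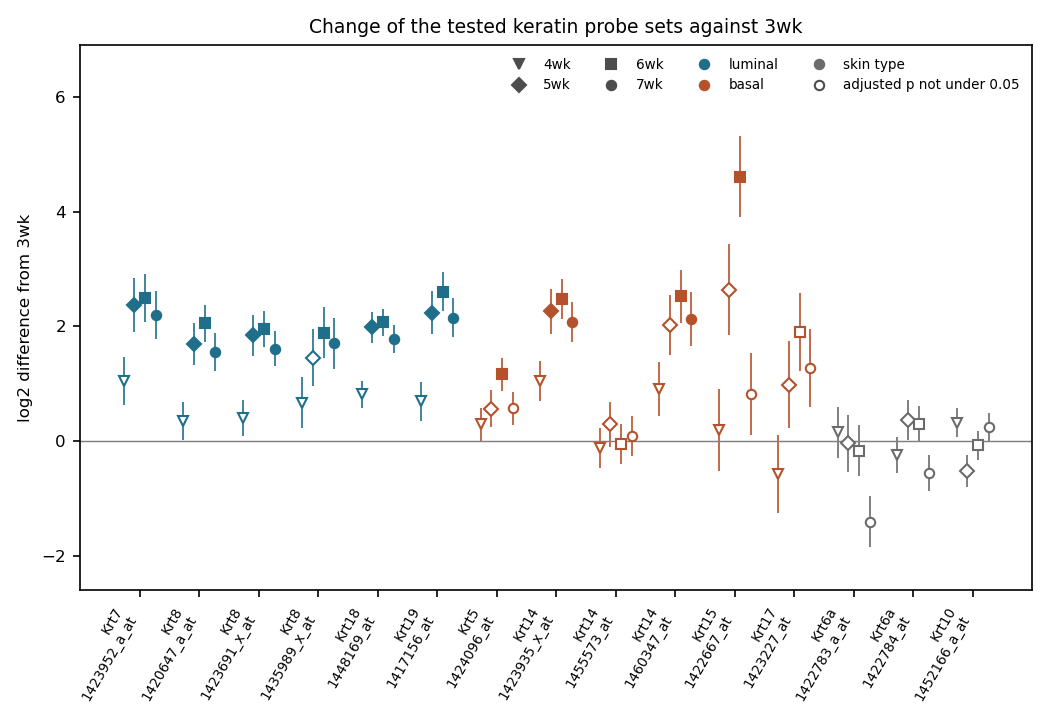
Log2 difference from 3wk (vertical axis) of the 15 tested keratin probe sets at 4wk, 5wk, 6wk and 7wk, with bars of 1 standard error of the limma fit and open symbols where the adjusted p is not under 0.05. From 5wk on the luminal probe sets lie between 1.45 and 2.60, the basal ones between -0.05 and 4.61, and the skin-type ones between -1.41 and 0.36.

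Set side by side at 6wk against 3wk, the median log2 difference was 2.06 over the 6 luminal probe sets (1.89 to 2.60), 2.19 over the 6 basal ones (-0.05 to 4.61) and -0.08 over the 3 skin-type ones (-0.17 to 0.30), and 0.06 over all tested probe sets. At 7wk against 3wk the medians were 1.74, 1.05 and -0.56, and 0.07 over all. Krt15 gave the 4.61 and enters both basal medians. It passed the filter on low signal only through arrays of 5wk to 7wk, with 24 to 86 steps at 3wk. The arrays of 6wk were wholly above those of 3wk for 11 of the 15 keratin probe sets, where 19.3% of all were, and those of 7wk for 9 of 15, where 17.3% of all were. Krt15, with the limit just given, is among the 11 and not among the 9. At 6wk, 6 of 15 stayed called without the arrays 6wk A and 6wk B, which had the lowest pyruvate carboxylase ratios, and the single 6wk array was then assumed to vary like the other ages. At 7wk, 5 of 15 were called without 7wk A, the array with the lowest hybridisation controls, the lost calls being Krt8 1420647_a_at and 1435989_x_at and Krt14 1460347_at, and 3 were called with those controls as a covariate in the fit.

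Whether another keratin changed by a different amount than the pair Krt8 and Krt18 was tested by subtracting, on each array, the mean log2 ratio of the Krt8 and Krt18 probe sets from every probe set. In that fit, of all tested probe sets, 84.1% passed at 5wk against 3wk (83.9% lower), 90.8% at 6wk (90.5% lower, 0.317% higher) and 84.4% at 7wk (84.0% lower), because the pair itself rose. A call lower than the pair is thus what a probe set with little change gives. Krt7 and Krt19 did not pass at any age, with differences from the pair of 0.50 (SE 0.29, adjusted p = 0.111) and 0.61 (SE 0.28, adjusted p = 0.0537) at 6wk. Krt14 1423935_x_at and 1460347_at did not pass either, at 0.49 (SE 0.58) and 0.53 (SE 0.58) at 6wk, nor did Krt17 1423227_at, at -0.09 (SE 0.75).

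Krt15 passed above the pair at 6wk, by 2.62 (SE 0.73, adjusted p = 0.00402), and did not at 7wk, at -0.84 (SE 0.73, adjusted p = 0.286). Both values are set against its 3wk arrays of 24 to 86 steps, and it was tested only through its later arrays, so the size and the call at 6wk carry that limit. Its fall at 7wk against 6wk did not pass relative to the pair, at -3.46 (SE 0.73, adjusted p = 0.0942). Krt5 passed below the pair at 7wk, by -1.09 (SE 0.40, adjusted p = 0.0207), and at 5wk, by -1.18 (SE 0.45, adjusted p = 0.0245), with -0.83 (SE 0.40, adjusted p = 0.0611) at 6wk. All 3 skin-type probe sets and Krt14 1455573_at passed below the pair at 5wk, 6wk and 7wk. For Krt10 the difference was -2.07 (SE 0.50, adjusted p = 0.00145) at 6wk and -1.42 (SE 0.50, adjusted p = 0.0169) at 7wk, and for Krt6a 1422783_a_at it was -2.16 (SE 0.48, adjusted p = 0.00091) and -3.06 (SE 0.48, adjusted p = 0.000771). At 5wk against 4wk these 2 probe sets also passed below the pair, by -2.02 and -1.37, as did 11197 of all 20209 tested.

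**Figure D4:**
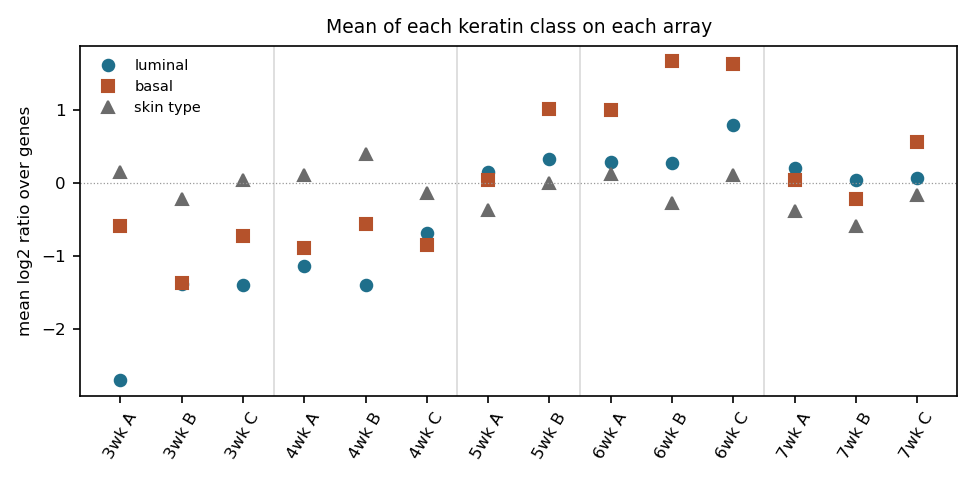
Mean log2 ratio over the genes of each keratin class (vertical axis) on each of the 14 arrays. The luminal mean lies between -2.70 and -0.69 on the arrays of 3wk and 4wk and between 0.04 and 0.79 on those of 5wk to 7wk, while the basal mean peaks at 6wk.

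On single arrays the classes differed in how closely their genes moved together. Over the deviations of the 14 arrays from their age means, the 12 pairs of luminal probe sets of different genes correlated at r = 0.81 to 0.95, with a median of 0.89. The 12 pairs of basal probe sets of different genes correlated at r = -0.51 to 0.57, with a median of 0.07, and the 36 luminal with basal pairs had a median of -0.17. These are descriptions over 14 arrays, and the probe sets compared share those arrays. How far array 3wk A, the lowest for every luminal probe set, sets the luminal correlations was not tested. The basal pairs include Krt15, at 24 to 86 steps on the 3wk arrays, and Krt14 1455573_at, which gave the -0.51 with Krt5. The basal mean, taken over Krt5, Krt14, Krt15 and Krt17, was 0.99, 1.66 and 1.63 at 6wk and 0.03, -0.23 and 0.56 at 7wk, which follows Krt15 most. Array 3wk A, the lowest for the luminal mean at -2.70, had a basal mean of -0.60, against -1.38 on 3wk B and -0.73 on 3wk C.

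No other keratin on the array passed at these ages. They comprised 30 genes with 32 probe sets, of which 28 were tested. Of the 28, 0 passed by limma in 5wk, 6wk or 7wk against 3wk, where 2.92%, 11.6% and 7.15% of all tested probe sets did. Their medians were -0.08, -0.01 and 0.05 on the log2 scale. Some differed widely from 3wk without passing. Krt23, at 19 to 816 steps, had 1.97 (SE 0.81) at 6wk and 2.30 (SE 0.81) at 7wk. Krt4 had 1.42 (SE 0.56) and 0.29 (SE 0.56), and Krt6b, at 49 to 433 steps, -1.61 (SE 0.73) and -1.22 (SE 0.73). Krt1, the usual type II partner of Krt10 in epidermis, had a log2 difference of -0.36 (SE 0.86) at 6wk and 0.57 (SE 0.86) at 7wk. Krt2, another epidermal keratin, was at 8 to 276 steps and not tested.

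The wider list of skin keratinocyte genes had 21 probe sets, 14 of them tested. Its mean log2 ratio over those 14 ran from -0.63 to 0.07 at 6wk and from -0.21 to 0.10 at 7wk, against -0.27 to -0.17 at 3wk. At 6wk, 3 of 14 were higher than at 3wk and 0 lower, and at 7wk 0 of 14 passed. The 3 were Sfn (3.37, SE 0.55, adjusted p = 0.00361), which encodes 14-3-3 sigma, Dmkn (1.04, SE 0.28, adjusted p = 0.0377), which encodes dermokine, and Sprr1a (0.78, SE 0.16, adjusted p = 0.011), a cornified envelope precursor. Sfn had a log2 difference of -1.83 for 7wk against 6wk (adjusted p = 0.187). Of the 21 probe sets 7 were under the filter and not tested, among them Ivl at 7 to 17 steps and Flg at 37 to 177 steps, while Tgm1, Tgm3, Cdsn, Sprr1b, Krt77 and Lor (on 2 of its 3 probe sets) were tested and did not pass at 6wk or 7wk. Of 12 tested hair follicle probe sets 1 was higher at 6wk, Tchh, which encodes trichohyalin, at 2.86 (SE 0.68, adjusted p = 0.0214), a count near the 7.71% of all tested probe sets that were higher. The part of skin or hair cells in the 6wk values of Krt15, Krt5 and Krt14 was not tested.

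All 12 luminal and pan-epithelial probe sets, of 8 genes, were higher at 6wk and at 7wk than at 3wk, with median log2 differences of 2.65 and 2.66. Among them Epcam, an epithelial adhesion molecule, reached 3.25 (SE 0.27, adjusted p = 0.000112) at 6wk, and Cdh1, which encodes E-cadherin, 2.60 (SE 0.22, adjusted p = 0.000122). Of 12 myoepithelial probe sets, of 7 genes, 5 were higher at 6wk and 4 at 7wk, with medians of 0.73 and 0.56. Those not called at 6wk included the 3 of Mylk, which encodes myosin light chain kinase, and 1 of the 2 of Myh11, smooth muscle myosin. Cnn1, a smooth muscle calponin of myoepithelial cells, reached 3.47 (SE 0.30, adjusted p = 0.000123) at 6wk and 2.74 (SE 0.30, adjusted p = 0.000553) at 7wk, and Acta2, smooth muscle actin, 1.35 (SE 0.20, adjusted p = 0.00246) and 0.76 (SE 0.20, adjusted p = 0.0489). Vessel muscle also carries Acta2, and Cnn1 and Myh11 are likewise smooth muscle genes, so this list is not particular to myoepithelial cells. Of 7 adipocyte probe sets 1 was lower at 6wk and 3 were lower at 7wk, with medians of -0.23 and -0.43, where 3.86% and 2.13% of all tested probe sets were lower. The 6wk call was Fabp4 1425809_at, and the 7wk calls were Fabp4 1425809_at and 1424155_at and Adipoq. Fabp4 1417023_a_at and 1451263_a_at did not pass, nor did Lep (0.77 at 7wk) or Cidec (-0.24 at 7wk). Among 9 fibroblast probe sets 1 was higher at 6wk, and 1 was higher and 1 lower at 7wk, counts too small to set against the 7.71% and 5.01% of all that were higher. None of 4 skeletal muscle probe sets passed.

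**Figure D5:**
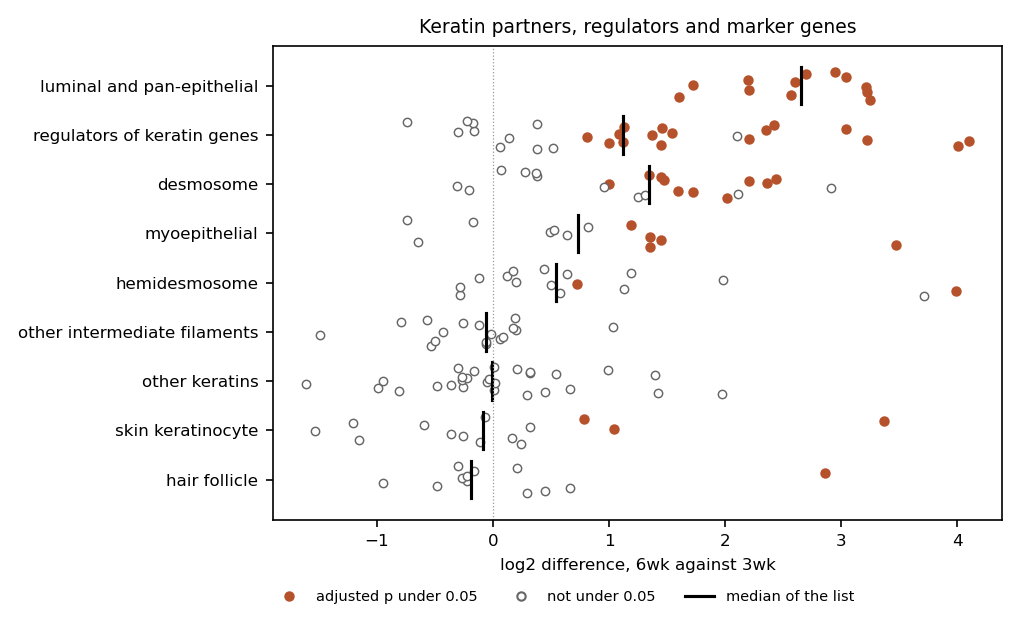
Log2 difference of 6wk against 3wk (horizontal axis) for every tested probe set of 9 gene lists, filled where the adjusted p is under 0.05, with a bar at the median of each list. The luminal list has its median at 2.65 and the other keratins at -0.01.

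Keratin filaments end at desmosomes between cells and at hemidesmosomes on the basement membrane. Of 21 tested desmosome probe sets, of 11 genes, 10 were higher at 6wk and 9 at 7wk than at 3wk, and 0 were lower, with medians of 1.34 and 1.36. Among all tested probe sets 7.71% were higher at 6wk and 5.01% at 7wk. Dsp, whose product desmoplakin ties keratin to the desmosome, had log2 differences of 2.36 (SE 0.22, adjusted p = 0.000158) at 6wk and 1.52 (SE 0.22, adjusted p = 0.0024) at 7wk on 1435493_at, 2.21 and 1.85 on 1435494_s_at, and 0.96 (adjusted p = 0.274) and 2.16 (adjusted p = 0.0315) on 1427610_at. Perp, a desmosomal membrane protein, reached 2.02 (SE 0.36, adjusted p = 0.00541) and 1.53 (SE 0.36, adjusted p = 0.0262). Dsc2, Dsg2 and Pkp2, a desmosomal cadherin pair and a plakophilin, reached 1.72, 1.59 and 1.34 at 6wk on the called probe set of each with the largest change, while at least 1 other probe set of each did not pass or was not tested. Pkp1, a plakophilin of stratified epithelia, was higher at 6wk by 2.44 (SE 0.52, adjusted p = 0.013) with 0.44 (SE 0.52, adjusted p = 0.697) at 7wk, and its 7wk against 6wk difference of -2.00 did not pass (adjusted p = 0.132). Of 16 hemidesmosome probe sets 2 were higher at both ages, a count too small to set against the 7.71% and 5.01% of all. Both were of Dst, which encodes the plakin that anchors keratin at the hemidesmosome. At 6wk they had 0.72 (SE 0.17, adjusted p = 0.0215) on 1423626_at and 3.99 (SE 0.59, adjusted p = 0.00215) on 1421117_at. The second lay at 12 to 527 steps over the arrays, with a mean ratio of 0.141 at 3wk, so its fold is set against dim arrays. The other 2 Dst probe sets, at 1.13 and 1.19, did not pass.

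The other intermediate filament genes tested, among them Vim, Des and the lamins, had 17 tested probe sets, of which 0 passed at 5wk, 6wk or 7wk against 3wk by limma, with medians of 0.12, -0.06 and -0.01. Of 27 probe sets of transcription factors known to act on keratin genes or keratinocytes, 16 were higher at 6wk and 16 at 7wk than at 3wk. Their medians were 1.12 and 1.06, and 7.71% and 5.01% of all tested probe sets were higher at those ages. Ehf, an epithelial ETS factor, was higher at 6wk on all 3 of its probe sets but by unequal amounts, 4.10 (SE 0.47, adjusted p = 0.000653) on 1419475_a_at, 2.42 on 1451375_at and 1.12 (adjusted p = 0.0495) on 1419474_a_at. Tfap2c, an AP-2 factor, was also higher on all 3, by 1.46 (SE 0.12, adjusted p = 0.000106) on 1448977_at, 2.35 (SE 0.28, adjusted p = 0.000789) on 1436392_s_at and 4.01 on 1418147_at, which lay at 22 to 1083 steps and is set against dim 3wk arrays. Elf5 and Gata3, regulators of luminal cells that also stand in the luminal list, reached 3.22 (SE 0.20, adjusted p = 2.67e-05) on 1419555_at, with 2.21 on the other Elf5 probe set, and 3.04 (SE 0.44, adjusted p = 0.00188). Trp63, the p63 factor of basal cells, which also stands in the myoepithelial list, had 1.45 (SE 0.22, adjusted p = 0.00288) at 6wk and 0.90 (SE 0.22, adjusted p = 0.0349) at 7wk on 1418158_at, while its other 2 probe sets had -0.17 and -0.74 at 6wk and did not pass. Grhl2, a grainyhead factor of epithelia, had 1.54 (SE 0.28, adjusted p = 0.00644) at 6wk and 1.53 (SE 0.28, adjusted p = 0.00864) at 7wk on 1427046_at. On 1452643_at it had 1.40 (adjusted p = 0.0205) at 5wk, -0.22 (adjusted p = 0.6) at 6wk and 1.41 (adjusted p = 0.00585) at 7wk, so the 2 probe sets disagreed at 6wk. Its other 2 probe sets did not pass at 5wk, 6wk or 7wk.

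The genes most like each keratin over the 14 arrays were taken as the 5 with the highest Pearson correlation of log2 ratios, a description in which the shared change with age enters. For the mean of Krt8 and Krt18 they were Cpt1a (r = 0.985), the enzyme that admits fatty acids to mitochondria, Ptn (0.982), the growth factor pleiotrophin, Lad1 (0.978), which encodes ladinin, Pdzrn3 (0.977) and Aqp5 (0.973), a water channel of glandular epithelia. Within ages these correlations were 0.87 to 0.92. For the mean of the 3 Krt14 probe sets they were Hspa1b (0.979), a heat shock protein, Zfp704 (0.968), Csn3 (0.963), which encodes kappa-casein, Ehf (0.960) and Perp (0.958), with 0.58 to 0.91 within ages. For Krt5 the 5 were Csnk1e, Coil, Actn1, Rasl11b and Krtcap2, at r = 0.906 to 0.911.

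For Krt10 the closest gene was Tnks2, which encodes a tankyrase, at r = 0.903, followed by Rbm42, Sun1, Omp and Hmbox1 at 0.803 to 0.825. For Krt15, which was added to this description after its values were seen, the closest were Rfc4 (0.939), a subunit of the replication clamp loader, Trp53bp1 (0.906), Gnl3 (0.896), Lamp5 (0.879) and Mcm7 (0.878), a subunit of the replicative helicase. Rfc4 had a log2 difference from 3wk of 0.72 (adjusted p = 0.0372) at 6wk and 0.03 (adjusted p = 0.95) at 7wk, and Lamp5 2.57 (adjusted p = 0.0116) and 0.00 (adjusted p = 0.999). Both genes were picked for their likeness to Krt15 on these same arrays, so a high 6wk was built into the choice. Krt15 itself was dim at 3wk and 4wk and was tested only through its later arrays. By Spearman's correlation only 1 or 2 of the 5 genes named for each keratin were among the closest 5.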

How the data were processed

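The members and gene lists were chosen with earlier results of these data known. Per the labels' protocols, total RNA of whole glands was labelled by in vitro transcription and hybridised by standard Affymetrix protocols; no source used here names the signal software. The authors deposited linear ratios: 98.48% of rows have a median of 1 within 0.001. Ratios ran from 0.01 to 38.13 and array medians from 0.953 to 1.017, so no further scaling was applied before log2. The 64 control probe sets and 2417 below the level filter (level recovered for 5181) were left out. In the platform annotation 20393 probe sets have 1 gene symbol, 691 have several and 1606 have none.

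For all 14 arrays limma 3.58.1 (R 4.3.3; lmFit, eBayes) fitted age as a factor, giving an F test and 7 two-sided contrasts with Benjamini-Hochberg adjustment; the fit was checked on simulated data. The replicates are the arrays of 1 age, and the p-values reflect only how these pools of mice vary; whether pools share mice is not stated. Every keratin probe set is given. Of the other lists, some of the genes called at 6wk or 7wk against 3wk are described, at most 6 a list. The choice does not strictly follow the size of change: the called Cldn3, Tagln, Pdgfra and Col1a2 are not described. Some genes that were not called are also named, skin markers among them. Plots came from matplotlib 3.10.9 and summaries from pandas 2.3.3 and numpy 2.4.6 under Python 3.11.15. Alternatives were another scaling, offset, filter, base pair, covariate, replicate block, robust fit and each array left out.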

Additional observations from a re-analysis of the deposited data

How the results depend on the processing

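There were 30 differences (each tested keratin probe set, 6wk and 7wk against 3wk) under 22 alternatives. Of the 660 values, 628 kept their side of the threshold, 32 lost the call and 0 gained one. In the called differences 0 values turned sign, while some that were not called did. Krt6a 1422783_a_at at 6wk was -0.17 with all arrays and 0.15 without 6wk B. Krt14 1455573_at at 6wk ran from -0.48 to 0.20 with each array left out. Median centring, quantile normalization, an offset of 0.05 and a robust fit changed no call. The count at 5wk against 3wk was 1 to 6 with each array left out, against 6 with all; without the arrays 5wk A or 5wk B only 1 5wk array remains. At 6wk it was 8 to 10, and 6 without 6wk A and B, against 10. At 7wk it was 5 to 8, and 3 with the hybridisation controls as a covariate, against 8. Those controls were lowest on the 7wk arrays, so the covariate cannot be fully told apart from age there, and the cause was not tested. The fall of Krt15 at 7wk against 6wk was -2.59 (adjusted p = 0.285) with that covariate and -3.96 (adjusted p = 0.37) without 6wk A and B. Of the calls of 1 probe set, Krt8 1435989_x_at at 7wk was lost in 11 of 14 fits that left out 1 array, and Krt14 1460347_at at 7wk in 3. The replicate letters do not pair the arrays: over 26 same-letter pairs of different ages the deviations correlated at r = -0.06 to 0.06, and 7 of 14 arrays were closest to one of their own letter. With the letter as a replicate block the counts were 9 over 5 ages, 6 relative to Krt8 and Krt18, and 6, 10 and 8 at 5wk, 6wk and 7wk against 3wk, against 8, 5, 6, 10 and 8, and Krt15 at 7wk against 6wk was -3.80 (adjusted p = 0.0605).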
